A study of Mus musculus with 9 samples.

Results

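Hydroxychloroquine added to cyclophosphamide was compared with cyclophosphamide alone in mouse ovarian granulosa cells, across 6 of the 9 RNA sequencing libraries of the study. The 3 libraries named CTX_HCQ were set against the 3 named CTX. Of 56748 genes in the deposited table, 13888 reached at least 1 FPKM in at least 3 of these 6 libraries and were tested. FPKM is fragments counted for a gene, scaled to its length and to the depth of the library. All animals were female C57BL/6 mice labelled wild type. CTX mice received cyclophosphamide at 120 mg per kg. CTX_HCQ mice received the same injection. Their oral hydroxychloroquine, 40 mg per kg daily, began 7 days ahead of the injection and went on for 4 weeks afterwards. The 3 Control libraries received neither drug, as the labels call them untreated and the design text calls them vehicle controls, and their values are given beside the others. The sources used here give no age, and the labels do not tell whether a library is 1 mouse or several. The p-values below therefore measure the spread between libraries, part of which may be technical.

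Granulosa cells enclose the oocyte, convert androgen to oestrogen and secrete anti-Müllerian hormone. Cyclophosphamide is an alkylating drug that crosslinks DNA and depletes ovarian follicles. Hydroxychloroquine is a weak base that gathers in lysosomes, raises their pH, slows the last step of autophagy and blocks the receptors that sense nucleic acids in endosomes. Lysosomes also release the cholesterol that cells take up, and cells short of free cholesterol switch on the genes that make it. These properties set the gene lists described here: lysosome and autophagy, sterols, nucleic acid sensing, mitochondria, senescence, follicle function and markers of other ovarian and neighbouring cells.

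With 3 libraries against 3, limma called no gene: 0 of 13888 genes had a Benjamini-Hochberg adjusted p under 0.05, which is 0.0% of those tested, and the smallest adjusted p was 0.357. Before adjustment, 732 genes had a limma p under 0.05, 5.27% of those tested, of which 241 were higher and 491 lower with hydroxychloroquine. limma's voom method on recovered reads also called 0 genes and left 713 below that unadjusted p, 404 of them lower (56.7% against 67.1% by limma). With mitochondrially encoded genes left out of the scaling, 387 of 677 were lower. The count depended on the libraries: it was 2328 without CTX_HCQ 2, with 1394 lower, and 2665 with library weights, with 1356 lower. The median difference of log2(FPKM+1) over all genes was 0.01, and 0.106 with mitochondrially encoded genes left out of the scaling. That setting divides each library by its summed FPKM over all other genes. It therefore changes the scaling for summed FPKM as well as for mitochondrial transcripts, and their shares in the 0.106 were not tested. List medians in that setting are to be read against 0.106. All 3 CTX_HCQ values lay above all 3 CTX values in 468 genes (3.37%) and below them in 625 genes (4.5%). Below, "higher" and "lower" describe the sign of a difference, and every unadjusted p comes from the same limma fit. The added pseudocount of 1 makes differences of weakly expressed genes smaller than their ratios.

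The labelled cell type was present in every library. Foxl2, a transcription factor that maintains granulosa cell identity, lay between 67.8 and 104 FPKM in the 6 libraries, and the receptor gene Fshr between 18.2 and 33.4. The library size behind the FPKM values was 15344526 in CTX_HCQ 3 and 16423608 to 17482349 in the other 5. Whole reads recovered over genes, which are not the depth, summed to 13881997 in CTX_HCQ 3 and 16401626 to 17243847 in the other 5. CTX_HCQ 3 also had the lowest summed FPKM, 246449 against 294105 to 378233. In CTX 3, mitochondrially encoded transcripts made up 28.9% of FPKM, against 11.7% to 17.5% in the other 5. CTX_HCQ 1 correlated across genes at 0.982 with each of Control 2 and Control 3, and at 0.929 and 0.919 with the other CTX_HCQ libraries, which shared 0.881. These values describe the libraries, and genes are not independent points.

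The libraries behind each difference were found by leaving each of the 6 out in turn. A library was said to carry a difference of at least 1 on the log2 scale when the difference fell under 0.5, or changed sign, without it. Of 288 genes with such a difference, 88 were higher and 200 lower with hydroxychloroquine, and 247 (85.8%) did not rest on a single library. Among the 88 higher genes, 29 were carried by at least 1 library, 18 of them by CTX_HCQ 3, and 30 had groups without overlap. Among the 200 lower genes, 12 were carried by at least 1 library and 142 had groups without overlap. Over all tested genes, 3.37% were higher and 4.5% lower without overlap. A difference of at least 1 by itself favours separate groups, so these counts are no support by themselves. Over both directions CTX_HCQ 3 carried 20 genes, CTX 3 carried 12, CTX_HCQ 1 carried 9, CTX 1 carried 3, CTX_HCQ 2 carried 1 and CTX 2 carried 0, where 3 genes fall under more than 1 library. The 20 genes carried by CTX_HCQ 3 were predicted genes, small RNA genes and entries without a symbol.

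Promoters are printed for 5 genes whose groups did not overlap or whose pathway leads the results, since the lists they belong to are known to share short control elements. Each runs from 250 bases before the start site to 50 after it, 5′ to 3′ along the gene, and comes from RefSeq on build GRCm38.p6. Capitals mark the element searched. Ccdc153 (chr9:44240427-44240726, plus strand) and Dynlrb2 (chr8:116504765-116505064, plus strand) are motile cilium genes, with the X-box element GTTGCCNNG, one arm of the site known for RFX factors.
Ccdc153: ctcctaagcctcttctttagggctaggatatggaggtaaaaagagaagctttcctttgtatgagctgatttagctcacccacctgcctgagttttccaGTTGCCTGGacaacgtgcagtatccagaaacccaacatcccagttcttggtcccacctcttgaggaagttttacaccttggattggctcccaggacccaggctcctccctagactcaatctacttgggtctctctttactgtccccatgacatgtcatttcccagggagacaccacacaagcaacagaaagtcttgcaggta
Dynlrb2: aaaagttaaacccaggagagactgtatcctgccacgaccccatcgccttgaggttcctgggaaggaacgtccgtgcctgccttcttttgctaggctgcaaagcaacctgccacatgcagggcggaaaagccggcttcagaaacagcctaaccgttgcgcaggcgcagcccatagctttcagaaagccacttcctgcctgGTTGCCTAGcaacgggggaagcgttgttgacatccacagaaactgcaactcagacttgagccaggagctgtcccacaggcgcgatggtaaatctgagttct
Ifi47 (chr11:49076337-49076636, plus strand) and Irgm1 (chr11:48871371-48871670, minus strand) encode interferon-inducible GTPases, with the interferon element AAANNGAAA, which in Irgm1 occurs as a pair of overlapping copies.
Ifi47: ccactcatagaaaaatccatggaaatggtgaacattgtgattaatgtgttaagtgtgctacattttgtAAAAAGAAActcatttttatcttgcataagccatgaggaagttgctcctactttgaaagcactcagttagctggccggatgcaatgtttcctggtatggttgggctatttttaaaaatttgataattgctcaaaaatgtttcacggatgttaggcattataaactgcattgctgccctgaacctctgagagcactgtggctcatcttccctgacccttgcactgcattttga
Irgm1: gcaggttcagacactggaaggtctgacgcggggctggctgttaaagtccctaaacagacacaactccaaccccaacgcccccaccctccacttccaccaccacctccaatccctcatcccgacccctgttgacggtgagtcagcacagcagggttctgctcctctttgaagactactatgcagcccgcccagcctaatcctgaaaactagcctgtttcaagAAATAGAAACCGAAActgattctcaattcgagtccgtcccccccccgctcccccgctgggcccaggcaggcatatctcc
Hmgcs1 (chr13:119690101-119690400, plus strand) encodes an early enzyme of cholesterol synthesis, with the sterol element TCACNCCAC.
Hmgcs1: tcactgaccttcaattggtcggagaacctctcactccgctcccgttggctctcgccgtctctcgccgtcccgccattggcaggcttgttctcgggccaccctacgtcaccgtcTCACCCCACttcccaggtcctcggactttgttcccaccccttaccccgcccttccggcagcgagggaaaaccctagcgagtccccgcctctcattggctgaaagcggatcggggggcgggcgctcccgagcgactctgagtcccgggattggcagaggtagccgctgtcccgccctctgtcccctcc
Both strands were searched, and a match is a description of these letters only. The X-box element was in 13 of the 30 cilium and oviduct genes with a promoter entry (43.3%), against 5.74% of all 27025 genes with one. The interferon element was in 20 of 25 interferon-stimulated genes (80.0%), against 12.1% of all genes. The sterol element was in 1 of 16 cholesterol synthesis genes (6.25%), against 1.44%. The lysosomal element TCACGTGAC was in 5 of 31 lysosomal genes (16.1%), against 0.895%. Among the 9869 tested genes with a promoter entry, the shares of these elements, in the same order, were 6.65%, 9.38%, 1.5% and 1.89%.

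Motile cilium and oviduct genes showed the widest gap between the library levels of the 2 groups, and no single library carried it. Ciliated and secretory cells of the oviduct express these genes, and granulosa cells are not known for them. Ovgp1 (ENSMUSG00000074340), the oviduct glycoprotein gene, stood at 91.0, 44.4 and 339 FPKM in CTX 1, 2 and 3 and at 4.69, 4.90 and 11.3 in CTX_HCQ 1, 2 and 3. The groups were far apart and CTX 3 was highest. The mean was 22.7-fold lower with hydroxychloroquine, a log2 difference of -3.92 (SE 1.09, unadjusted p = 0.00469, limma with Benjamini-Hochberg adjusted p = 0.507), and -3.12 without CTX 3. Foxj1 (ENSMUSG00000034227), the transcription factor that programs motile cilia, stood at 10.6, 14.0 and 21.5 FPKM in CTX and at 1.56, 0.262 and 1.94 in CTX_HCQ. Its difference was -2.90 (SE 0.79, limma adjusted p = 0.497) and lay between -3.13 and -2.52 with any of the 6 libraries left out.

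Rsph1 (ENSMUSG00000024033), which encodes a radial spoke head protein of the cilium, had the smallest p of all named genes, 0.000139. It stood at 6.76, 6.60 and 10.5 FPKM in CTX and at 2.42, 2.54 and 1.28 in CTX_HCQ, a 3.82-fold lower mean and a log2 difference of -1.54 (SE 0.26, limma adjusted p = 0.357). Ccdc153, whose promoter is printed above, stood at 5.84, 5.20 and 11.6 in CTX and at 0.563, 0.590 and 0.416 in CTX_HCQ. No CTX_HCQ library came near a CTX library in either gene. Dynlrb2, a dynein light chain gene, stood at 3.74, 6.87 and 9.53 in CTX and at 0.542, 0.206 and 0.821 in CTX_HCQ. Lrrc23, of the radial spokes, had means of 3.07 ± 1.03 and 0.440 ± 0.190 (SD, n = 3 each), and Rsph9 of 5.71 ± 0.705 and 2.73 ± 0.569. Cfap126, a basal body gene, had means of 5.28 ± 1.73 and 1.75 ± 0.291.

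The list named 35 genes. Mcidas was at 0 in every library, 34 were detected and 25 passed the filter, 15 of them with 1 FPKM reached in CTX libraries alone, so the count that passed is no support by itself. Over all 34 detected genes, 32 were lower with hydroxychloroquine and 30 were lower without overlap, where 4.294% of the 31273 genes above 0 in any of the 6 libraries were. In 6 of the 25 every library held at least 1 FPKM, and all 6 were lower without overlap, where 3.683% of the 11893 such genes were. Rfx2, Rfx3 and Ccdc39 overlapped between groups, with differences of -0.07, 0.07 and 0.09. RFX genes act in many cell types besides ciliated ones. The list's summed level was 135 to 498 FPKM in CTX and 28.4 to 42.8 in CTX_HCQ.

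The Control libraries split on these genes. Ovgp1 stood at 55.5, 4.01 and 1 FPKM in Control 1, 2 and 3, and Foxj1 at 11.8, 0.425 and 0.0231. The summed level was 139 in Control 1, within the CTX range, and 22.8 and 16.6 in Control 2 and Control 3, under every CTX_HCQ library. When Control 1 was left out of the fit, which then pooled less spread, limma called 12 genes between CTX_HCQ and CTX, all lower. Foxj1 and Ccdc153 (limma adjusted p = 0.027 each) and Dynlrb2 (limma adjusted p = 0.042) were among them. So were Tmem212, Sec14l3, Nme9, Ldlrad1, Cdhr3 and Cyp2b10, named here because of that call. No call was made with any of the other 8 libraries left out. In bulk RNA, fewer cells of a type and less RNA per cell cannot be told apart, and the part of oviduct tissue in other differences was not tested.

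**Figure D1:**
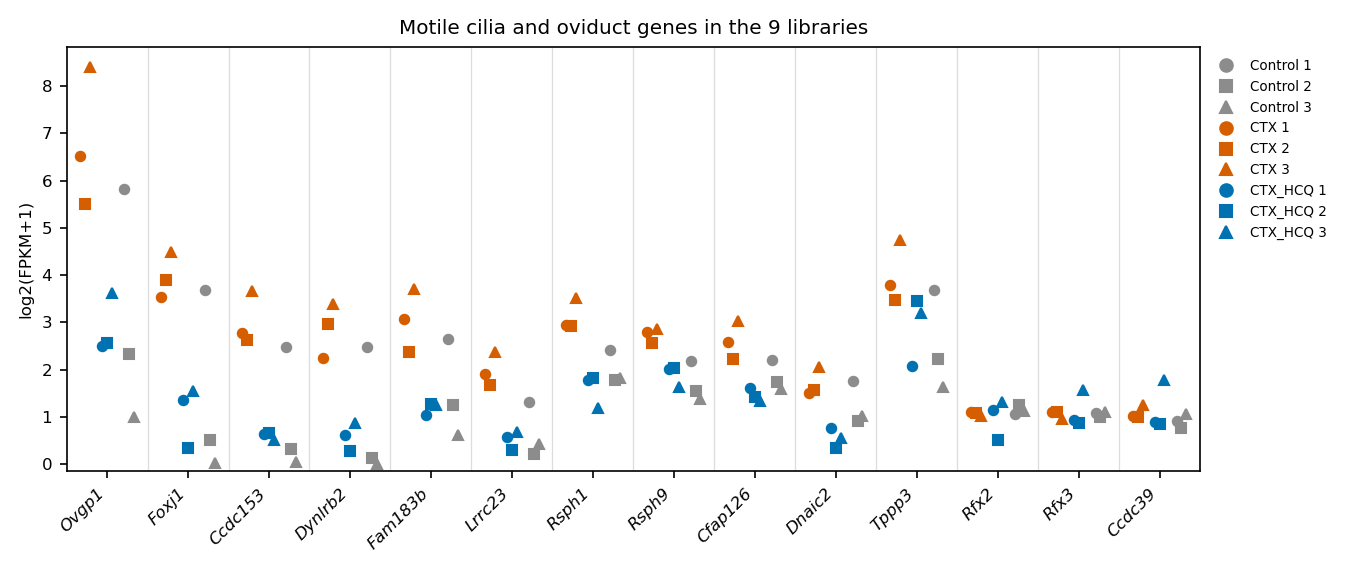
Levels of 14 motile cilium and oviduct genes as log2(FPKM+1) in the 9 libraries, 1 point per library, colour for the group and shape for the library number. In the genes from Ovgp1 to Tppp3 the 3 CTX points lie above the 3 CTX_HCQ points and Control 1 lies above the other Control libraries, while Rfx2, Rfx3 and Ccdc39 overlap.

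Cholesterol synthesis genes were lower with hydroxychloroquine in 20 of 21 members, with a median difference of -0.87 against 0.01 over all genes. Nsdhl (ENSMUSG00000031349), a sterol dehydrogenase gene, stood at 28.7, 25.2 and 24.0 FPKM in CTX and at 9.81, 14.3 and 11 in CTX_HCQ. All CTX values were above all CTX_HCQ values. The mean was 2.22-fold lower, a log2 difference of -1.10 (SE 0.28, unadjusted p = 0.00285, limma adjusted p = 0.456), and lay between -1.24 and -0.99 with any of the 6 libraries left out. Tm7sf2, a sterol reductase gene, stood at 18.8, 12.1 and 10.6 in CTX and at 3.56, 11.1 and 6.25 in CTX_HCQ. Here CTX_HCQ 2 overlapped CTX.

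Hmgcs1, whose promoter holds the sterol element, stood at 251, 194 and 92.4 FPKM in CTX and at 66.4, 143 and 46.3 in CTX_HCQ, a difference of -1.11 (SE 0.49, unadjusted p = 0.047, limma adjusted p = 0.915). CTX 1 was highest and CTX 3 lay inside the CTX_HCQ range. Sqle, which adds oxygen to squalene, had means of 49.0 ± 15.1 in CTX and 24.8 ± 7.25 in CTX_HCQ, and Lss, which closes the sterol rings, of 14.9 ± 5.13 and 7.09 ± 3.46 (SD, n = 3 each). In both genes CTX 3 lay inside the CTX_HCQ range. Mvk, mevalonate kinase, was with Nsdhl the only member without overlap, at 22.9 ± 2.12 and 17.6 ± 5.06. These were 2 of 21 members, where 4.5% of all genes were lower in that way. Ggps1, a side branch to protein prenylation, was the 1 higher member, at 7.79 ± 0.837 and 8.196 ± 0.789. At an unadjusted p under 0.05 stood 9 of the 21, against 5.27% of all genes in either direction.

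By library, the list's level, the median over members of log2(FPKM+1) minus the gene's mean in the 6 libraries, was 0.84, 0.51 and -0.07 in CTX 1, 2 and 3. It was -0.53, 0.17 and -0.79 in CTX_HCQ 1, 2 and 3. CTX 1 and CTX 2 were thus high, CTX_HCQ 1 and CTX_HCQ 3 low, and CTX 3 and CTX_HCQ 2 crossed. The median difference was -0.52 without CTX 1 and -1.13 without CTX 3, its 2 extremes. The Control levels were 0.28, -0.69 and -0.51, with Control 1 above CTX 3.

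Other sterol genes gave a mixed picture, 15 of 21 lower with a median of -0.20. It was -0.36 without CTX 3, -0.13 without CTX 2 and -0.09 under quantile normalization. With mitochondrially encoded genes left out of the scaling it was also -0.09, where all genes had 0.106. Abca1 (ENSMUSG00000015243), which exports cholesterol from the cell, was higher without overlap. It stood at 15.5, 18.7 and 10.9 FPKM in CTX, at 32.2, 19.4 and 25.8 in CTX_HCQ and at 26.9, 30.8 and 24.9 in Control. The difference was 0.74 (SE 0.24, unadjusted p = 0.0118, limma adjusted p = 0.691). Of the 21 genes, 1 was higher and 1 lower without overlap, where 3.37% and 4.5% of all genes were. Scd1, a fatty acid desaturase gene, stood at 57.2, 45.8 and 19.9 in CTX and at 17.8, 19.0 and 21.3 in CTX_HCQ, so that CTX 3 lay among the CTX_HCQ libraries. Scarb1, the receptor that takes up cholesterol from high density lipoprotein, had means of 212 ± 64.8 and 131 ± 49.7, with CTX 3 inside the CTX_HCQ range.

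**Figure D2:**
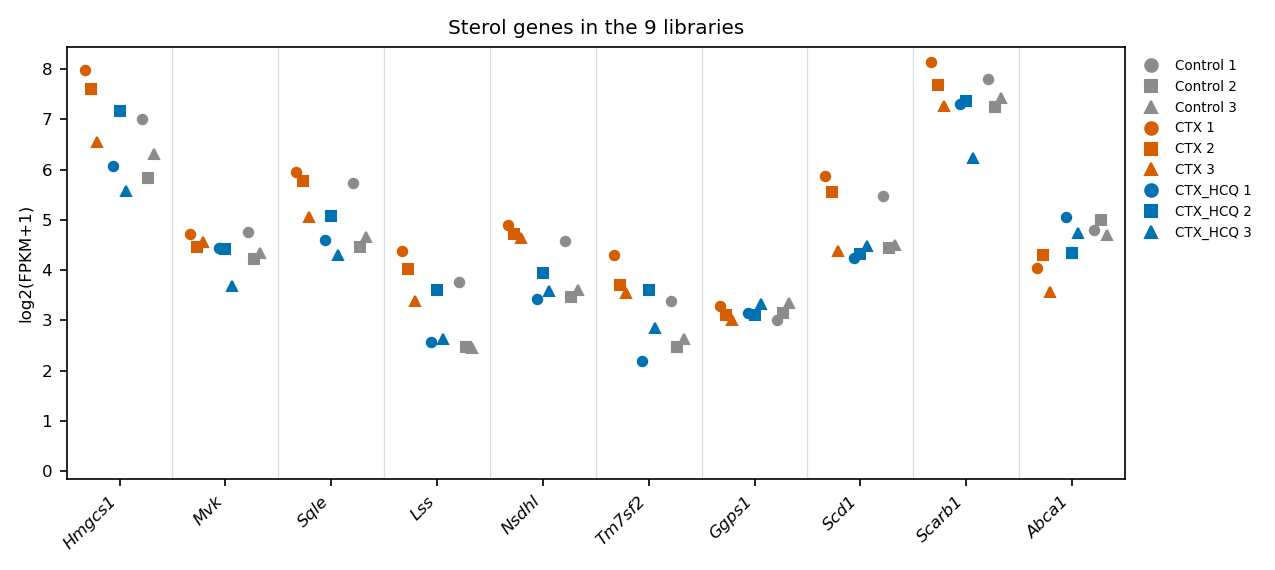
Levels of 10 sterol and lipid genes as log2(FPKM+1) in the 9 libraries, 1 point per library. CTX 1 and CTX 2 are high in most synthesis genes. CTX 3 lies inside the CTX_HCQ range in Hmgcs1, Sqle, Lss, Tm7sf2, Scd1 and Scarb1. Abca1 is the gene whose CTX_HCQ points all lie above the CTX points.

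All 13 mitochondrially encoded genes were lower with hydroxychloroquine, 5 of them without overlap (4.5% of all genes were), with a median difference of -0.98 that was -0.40 under quantile normalization. These genes encode subunits of the respiratory chain on the mitochondrion's own DNA. mt-Atp6, of the ATP synthase, stood at 730, 190 and 1847 FPKM in CTX and at 81.6, 70.8 and 246 in CTX_HCQ, and CTX 2 lay below CTX_HCQ 3. mt-Co2, of cytochrome oxidase, stood at 460, 373 and 1622 in CTX and at 113, 271 and 210 in CTX_HCQ, a difference of -1.81 (SE 0.56, unadjusted p = 0.00863, limma adjusted p = 0.662). The groups were apart and CTX 3 was far above the other 5 libraries. mt-Co1, the most abundant member, had means of 26600 ± 9198 and 14340 ± 921 (SD, n = 3 each). mt-Atp6 and mt-Co2 had the largest differences of the list. In the more abundant mt-Co1, mt-Nd1 and mt-Cytb the differences were -0.84, -0.93 and -0.89. The list's level was 0.29, -0.14 and 1.30 in CTX and -0.76, -0.38 and -0.15 in CTX_HCQ, with CTX 2 and CTX_HCQ 3 almost equal. CTX 3 was the library with most weight, and without it the median was -0.58.

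Nuclear genes of the respiratory chain pointed the same way in number, 75 of 75 lower, but their median difference of -0.41 rested on CTX_HCQ 3. Without that library it was -0.04, and without CTX_HCQ 2 it was -0.81. The levels were 0.32, -0.03 and 0.35 in CTX and -0.19, 0.48 and -0.98 in CTX_HCQ, so CTX_HCQ 2 was the highest and CTX_HCQ 3 the lowest of the 6. Cox7a2 (ENSMUSG00000032330), of cytochrome oxidase, stood apart from this pattern at 139, 99.9 and 115 FPKM in CTX and 69.1, 64.2 and 45.4 in CTX_HCQ. It had no overlap and a difference of -0.98 (SE 0.23, limma adjusted p = 0.456). Atp5g2, of the ATP synthase, was likewise apart at 125, 86.1 and 105 against 64.8, 49.4 and 47.8. In all 7 of the 75 were lower without overlap, against 4.5% of all genes.

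Cytoplasmic ribosomal protein genes followed the same libraries, 62 of 63 lower with a median of -0.41, and -0.02 without CTX_HCQ 3. Rpl31 was lower without overlap, at 294 ± 107 FPKM in CTX and 147 ± 37.2 in CTX_HCQ. Rps10 was the 1 higher member, at 4.76 ± 0.711 and 7.06 ± 1.37. Without overlap, 3 of the 63 were lower and 1 was higher, where 4.5% and 3.37% of all genes were. Antioxidant genes were lower in 24 of 25 members, with a median of -0.39 and of -0.02 without CTX_HCQ 3. Gpx3, the secreted glutathione peroxidase, stood at 1062, 757 and 445 in CTX and at 265, 563 and 318 in CTX_HCQ. Catalase, Cat, was lower without overlap at 43.5, 38.9 and 38.4 against 32.3, 33.6 and 23.7, a difference of -0.43 (SE 0.19, unadjusted p = 0.0429, limma adjusted p = 0.915). Among the 25 antioxidant genes 2 were lower in that way.

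Gene length moved with the difference as well, and its part in these 3 lists was not tested beyond the values given here. Genes with 1000 to 2000 bases of exon were lower in 75.2% of cases, with a median difference of -0.19, while genes of 5000 bases or more were lower in 27.95% with a median of 0.12. In the shorter class the level was -0.41 in CTX_HCQ 3 and 0.24 in CTX_HCQ 2. With the trend on length removed from each library, the medians were -0.25 for nuclear respiratory genes, -0.27 for ribosomal protein genes and -0.25 for antioxidant genes. They were -0.84 for cholesterol synthesis, -1.18 for cilium and oviduct genes and -0.26 for interferon-stimulated genes.

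**Figure D3:**
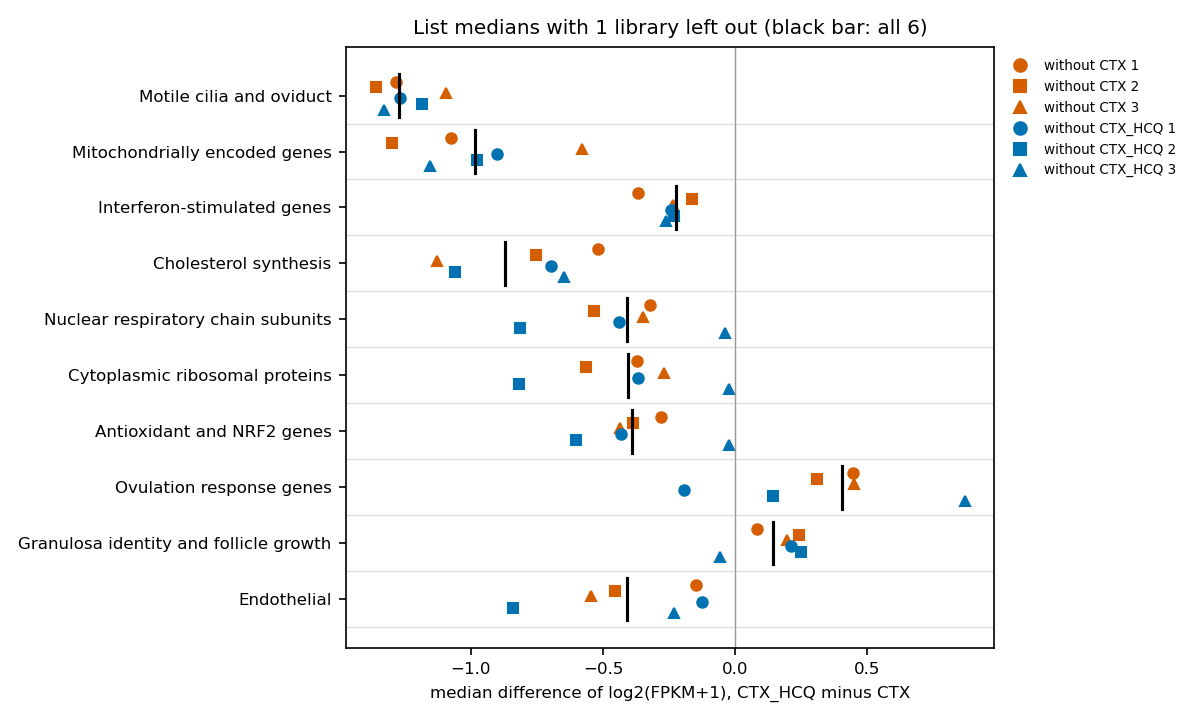
Median difference of log2(FPKM+1), CTX_HCQ minus CTX, of 10 gene lists with each of the 6 libraries left out (coloured points) and with all 6 (black bars). Cilium and oviduct genes stay between -1.36 and -1.09, while nuclear respiratory, ribosomal and antioxidant genes move to near 0 without CTX_HCQ 3 and ovulation genes change sign without CTX_HCQ 1.

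Interferon-stimulated genes, part of the antiviral response, were slightly lower with hydroxychloroquine in 27 of 29 tested members of 34 found. The median difference was -0.22 and lay between -0.37 and -0.16 with any library left out. Over all 34 detected members 28 were lower and 6 higher, with a median of -0.19. Ifi47 (ENSMUSG00000078920) stood at 2.69, 4.73 and 3.30 FPKM in CTX, at 1.90, 2.22 and 1.74 in CTX_HCQ and at 2.38, 2.84 and 2.28 in Control. The difference was -0.61 (SE 0.20, unadjusted p = 0.011, limma adjusted p = 0.684) with no overlap. Irgm1 stood at 4.05, 5.70 and 4.55 in CTX and at 3.79, 3.45 and 3.97 in CTX_HCQ, and its groups were separate by a narrow margin. Ifi27l2a stood at 30.4, 43.8 and 29.7 in CTX and at 26.6, 16.8 and 24.2 in CTX_HCQ, and Irf9, of the interferon receptor's transcription complex, at 7.09 ± 0.385 and 5.87 ± 0.626. These 4 of 29 were the members without overlap, against 4.5% of all genes lower in that way.

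Isg15, a ubiquitin-like protein, stood at 7.27, 8.70 and 16.1 FPKM in CTX and at 4.03, 11.1 and 5.01 in CTX_HCQ, where CTX_HCQ 2 was inside the CTX range. Bst2, which tethers budding viruses, was the most abundant, at 502, 338 and 395 against 238, 419 and 195, with the same library inside. Trim25, a ubiquitin ligase of RNA sensing, was higher at 13.6 ± 3.05 and 17.8 ± 5.31. The list's level was -0.06, 0.25 and 0.24 in CTX and -0.16, -0.12 and -0.07 in CTX_HCQ, where CTX 1 and CTX_HCQ 3 were almost equal. Control levels were -0.36, -0.10 and -0.15.

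The cGAS-STING pathway, which detects DNA outside the nucleus, was tested in 16 of 20 members found, with 7 higher and 9 lower. The median was -0.06 against 0.01 over all genes, or 0.05 against 0.106 with mitochondrially encoded genes left out of the scaling. Cgas, the DNA sensor, did not pass the filter, at 0.937, 1.27 and 1.15 FPKM in CTX and at 0.746, 0.790 and 0.932 in CTX_HCQ from at most 89 reads. Its CTX_HCQ values were below its CTX values, with a margin of less than 0.01 FPKM between CTX 1 and CTX_HCQ 3. Sting1, the membrane adaptor, stood at 3.15, 4.68 and 5.82 against 4.00, 2.61 and 3.07, and the groups overlapped. Enpp1, which breaks down the cGAS product, was higher without overlap at 1.21, 1.15 and 1.22 against 1.53, 1.53 and 2.22. So was Nfkb1, at 4.28, 4.86 and 4.36 against 5.02, 5.29 and 5.7. These were 2 of 16 members, where 3.37% of all genes were higher in that way. The kinase gene Tbk1 had means of 8.60 ± 1.01 and 10.03 ± 1.27 and the transcription factor gene Irf3 of 25.2 ± 5.15 and 27.3 ± 5.79. Endosomal Toll-like receptor genes had a median of 0.04. No member was without overlap among 10 tested, where 3.37% of all genes were higher and 4.5% lower in that way.

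Lysosomal enzyme and membrane protein genes, at the site where the drug gathers, gave no common direction: 24 of 41 were lower and 17 higher. Their median was -0.05 against 0.01 over all genes, and 0.05 against 0.106 with mitochondrially encoded genes left out of the scaling. Laptm4a, a lysosomal membrane protein gene, was the single member of 41 without overlap, where 4.5% of all genes were lower in that way. It stood at 372, 302 and 359 FPKM in CTX and 260, 258 and 237 in CTX_HCQ. The vacuolar proton pump, which acidifies the lysosome, was lower in 14 of 16 genes with a median of -0.25, and of -0.09 without CTX_HCQ 3. Atp6v0e, of its membrane sector, stood at 29.0, 21.4 and 20 in CTX and at 16.7, 14.4 and 14.4 in CTX_HCQ, a difference of -0.58 (SE 0.20, unadjusted p = 0.0158, limma adjusted p = 0.754). Autophagy genes were higher in 22 and lower in 16 of 38, with a median of 0.03 that was -0.06 without CTX 3, -0.05 without CTX_HCQ 1 and, after removal of the trend on length, -0.01. Tfeb, the factor that switches on lysosome and autophagy genes, stood at 1.95, 1.80 and 2.34 against 3.30, 3.84 and 2.06, so only CTX_HCQ 3 fell inside the CTX range. Its difference was 0.40 (SE 0.22, unadjusted p = 0.0942, limma adjusted p = 0.915).

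Senescence genes had a median of -0.06 over 22 tested of 34, with 9 higher and 13 lower, and a median of 0.03 under quantile normalization. Cdkn1a, the p21 cell cycle inhibitor, stood at 6.74, 6.93 and 5 FPKM in CTX and at 25.1, 4.28 and 8.53 in CTX_HCQ, so its higher mean came from CTX_HCQ 1. Without that library the difference was -0.02 in place of 0.61 (SE 0.65). Control 1, 2 and 3 held 7.05, 30.4 and 40.7. Mmp2, a matrix protease gene, was higher without overlap at 4.51, 5.18 and 3.52 against 11.9, 6.01 and 6.32 (difference 0.70, SE 0.25, unadjusted p = 0.0168, limma adjusted p = 0.768). Of the 22 tested, 1 was higher in that way, where 3.37% of all genes were. Cdkn2b, the p15 inhibitor, had means of 5.51 ± 3.11 and 2.10 ± 1.02, and CTX 3 lay among the CTX_HCQ libraries. Cdkn2a did not pass the filter, at 0.783 ± 0.194 and 0.282 ± 0.349. Genes induced by p53 had a median of 0.05, and Trp53 itself stood at 26.1 ± 7.69 and 25.5 ± 3.16. Glb1, the lysosomal beta-galactosidase, had means of 26.6 ± 2.55 and 31.0 ± 9.29, Lmnb1 of 33.5 ± 7.29 and 36.4 ± 7.98, and Tfam of 13.1 ± 2.84 and 12.3 ± 4.29.

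Genes of granulosa identity and follicle growth were higher in 15 of 20, with a median of 0.14, and of -0.06 without CTX_HCQ 3. Gata4, a transcription factor of the granulosa and theca, was higher without overlap at 40.3, 61.0 and 50.2 FPKM in CTX and 63.2, 63.6 and 93.8 in CTX_HCQ, a difference of 0.53 (SE 0.25, unadjusted p = 0.063, limma adjusted p = 0.915). CTX 2 and CTX_HCQ 1 were nearly equal. Amh, anti-Müllerian hormone, stood at 172, 208 and 424 in CTX and at 402, 298 and 189 in CTX_HCQ, an order that crossed fully between the groups. Its receptor gene Amhr2 was higher without overlap, at 90.8, 96.9 and 89.6 against 141, 97.7 and 110, with CTX 2 and CTX_HCQ 2 nearly equal. Without overlap, 1 of 20 identity and growth genes was higher, and 1 of 14 tested anti-Müllerian hormone, inhibin and activin genes. Over all genes 3.37% were. Tgfbr3, a co-receptor for inhibin, stood at 10.2, 12.6 and 9.54 against 24.6, 11.6 and 21.6, with CTX_HCQ 2 inside the CTX range (difference 0.72, SE 0.27, unadjusted p = 0.0218, limma adjusted p = 0.827). Fshr had means of 25.2 ± 7.50 and 26.99 ± 6.28, and Foxl2 of 75.6 ± 9.87 and 93.1 ± 12.5.

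Steroid synthesis split by library. Star, which carries cholesterol into mitochondria, stood at 151, 179 and 137 FPKM in CTX and at 192, 149 and 42.7 in CTX_HCQ, and its difference of -0.53 became 0.13 without CTX_HCQ 3. Cyp11a1, which makes pregnenolone, stood at 1670, 1197 and 707 against 1306, 1102 and 479, and Cyp19a1, aromatase, at 20.2, 37.6 and 7.93 against 11.1, 23.3 and 35.1. Cyp17a1, the theca enzyme for androgen, stood at 7.06, 24.7 and 7.65 against 0.958, 24.2 and 45.5, with CTX_HCQ 1 lowest and CTX_HCQ 3 highest of the 6. Hsd3b1, the abundant enzyme that makes progesterone, was lower without overlap, at 5655, 4458 and 4637 against 2763, 4170 and 1851. Lhcgr, the receptor of luteinizing hormone, had means of 173 ± 80.3 and 83.2 ± 25. Ces1d, a carboxylesterase gene in the theca list, was lower without overlap at 13.1 ± 2.24 and 5.13 ± 1.95. In that way 1 of 16 luteal and 2 of 12 tested theca genes were lower, where 4.5% of all genes were. Luteal genes had a median of -0.25, which was -0.01 without CTX 1 or without CTX_HCQ 3, -0.57 without CTX 3 and -0.54 without CTX_HCQ 1. It was -0.05 under quantile normalization. Theca genes had a median of -0.21, and summed to 5981 to 8250 FPKM in CTX and 2730 to 6176 in CTX_HCQ. The theca median was -0.43 without CTX_HCQ 2, -0.10 with mitochondrially encoded genes left out of the scaling (0.106 over all genes) and -0.05 under quantile normalization.

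In ovulation genes, induced by the surge of luteinizing hormone, the higher median rested on CTX_HCQ 1. Adamts1, a protease of the ovulating follicle, stood at 17.2, 11.5 and 6.64 FPKM in CTX and at 132, 12.4 and 7.21 in CTX_HCQ. Edn2, endothelin of the rupturing follicle, stood at 1.14, 1.29 and 0.625 against 14.6, 1.14 and 2.63. Runx1, a transcription factor, stood at 4.00, 4.99 and 3.25 against 18.9, 3.23 and 5.70. In all 3 genes CTX_HCQ 1 was far above the other 5 libraries. In Control 1, 2 and 3, Adamts1 held 21.0, 135 and 203 FPKM and Runx1 held 4.74, 24.9 and 27.8, so CTX_HCQ 1 was near Control 2 and Control 3. Over 7 tested of 16 the median was 0.40, and -0.19 without CTX_HCQ 1. Over all 15 detected members it was 0.07, with 8 higher and 7 lower. Adamts1 and Edn2 were carried by CTX_HCQ 1, while the difference of Runx1, 0.72, was under the bound of 1. Tinagl1, Nr4a1 and Grem1 were also carried by this library: Tinagl1, a matrix protein gene, stood at 7.35, 5.68 and 7.82 against 97.1, 9.97 and 3.56. Grem1, which blocks bone morphogenetic proteins, ran the other way, at 10.1, 18.7 and 12.9 against 1.06, 3.77 and 24.8. CTX 3 carried Fxyd4, a regulator of the sodium pump, at 1.37, 0.270 and 13.5 against 0.185, 0.0877 and 1.47, and Alox15, a lipoxygenase gene, at 3.46, 3.57 and 16.4 against 0.860, 2 and 4.83.

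The genes of smallest p outside these lists did not rest on 1 library. They were picked by p in these same libraries, which favours small spread within groups. Their stability and lack of overlap are therefore no added support. Among lower genes, S100a11, a calcium-binding protein gene, stood at 224, 185 and 311 FPKM in CTX and at 108, 102 and 85.7 in CTX_HCQ, a difference of -1.25 (SE 0.26, limma adjusted p = 0.380). Mrpl42, of the mitochondrial ribosome, stood at 14.7, 14.4 and 16.2 against 7.67, 9.63 and 6.67, with Control at 9.89, 9.93 and 10.3. Gng5, a G protein subunit gene, had means of 39.2 ± 5.63 and 20.2 ± 4.17, and Hist1h2bc, a histone gene, of 31.6 ± 9.31 and 12.2 ± 4.53. Dynlt1b, at 32.8 ± 4.32 and 15.4 ± 2.13, has near-identical copies, and Rpl31-ps8, at 171 ± 26.2 and 84.2 ± 13.0, is a pseudogene of Rpl31, so both are uncertain as single genes.

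Among higher genes, Slc18a2 (ENSMUSG00000025094), the vesicular monoamine transporter, stood at 28.0, 27.5 and 32.9 FPKM in CTX, at 45.7, 42.2 and 73.6 in CTX_HCQ and at 50.5, 58.6 and 55.9 in Control. The difference was 0.81 (SE 0.23, unadjusted p = 0.00574, limma adjusted p = 0.553), and 0.565 without CTX_HCQ 3. Eln (ENSMUSG00000029675), elastin, had the smallest p on this side, 0.00394, with 2.85, 3.62 and 3.02 against 5.33, 4.66 and 5.44. Metrnl, a secreted factor, had means of 52.5 ± 5.38 and 81.0 ± 8.17, Myo10, a myosin of filopodia, of 13.3 ± 3.36 and 20.9 ± 0.513, and Smad7, an inhibitor of TGF-beta signalling, of 5.41 ± 0.867 and 9.82 ± 2.74. None of these groups overlapped. Fgd3 had the largest difference of the 10 higher genes of smallest p, 1.21 (SE 0.40), at 1.92, 2.09 and 2.43 against 9.69, 3.76 and 6.58. Yjefn3, Nfxl1, Megf6 and Vsig10 were higher by 0.53 to 0.90 without overlap. In these 10 genes the difference lay between 0.44 and 1.52 with any library left out, which the choice by p favours.

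**Figure D4:**
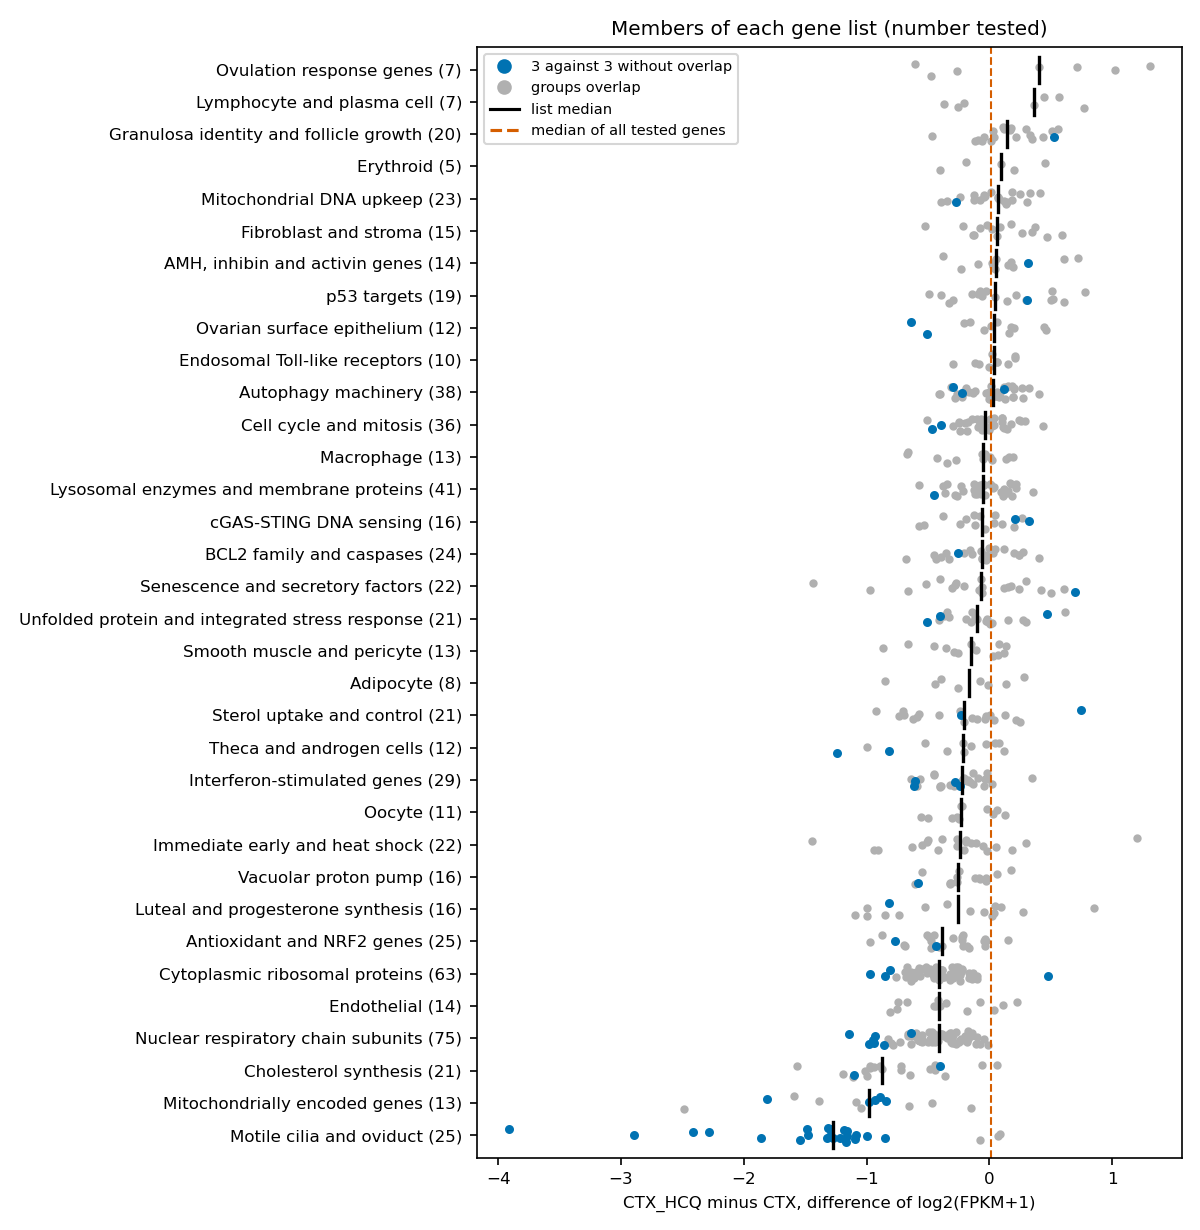
Difference of log2(FPKM+1), CTX_HCQ minus CTX, for each tested member of 34 gene lists, ordered by the list median (black bar), with the median of all tested genes at 0.01 (dashed line). Blue points are genes whose 3 CTX_HCQ values all lie above or all below the 3 CTX values. All 75 nuclear respiratory genes lie below 0, and cilium and oviduct genes reach the lowest values.

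Among markers of other cells, endothelial genes had a median of -0.41. No member was without overlap among 14 tested, where 3.37% of all genes were higher and 4.5% lower in that way. Emcn, an endothelial sialomucin, stood at 3.28 ± 0.883 and 1.68 ± 1.59 FPKM, and Cdh5, the cadherin of vessel walls, at 15.7 ± 4.40 and 9.65 ± 3.85. The list summed to 82.8 to 147 FPKM in CTX and to 57.1, 149.5 and 62.8 in CTX_HCQ 1, 2 and 3, so CTX_HCQ 2 stood just above the CTX range. Without CTX_HCQ 2 the median was -0.84 and without CTX_HCQ 1 it was -0.12. Epithelial Krt18 and Cdh1 were lower without overlap, Krt18 at 39.6, 39.1 and 60.4 against 34.5, 29.9 and 30.6, and Cdh1 at 13.6, 14.1 and 16.1 against 9.74, 7.14 and 10.5. They belong to the surface epithelium list, in which 7 of 12 members were higher and the median was 0.04, and oviduct epithelium expresses both as well. Of these 12, 2 were lower without overlap, where 4.5% of all genes were. Macrophage genes had a median of -0.05, or 0.04 with mitochondrially encoded genes left out of the scaling, where all genes had 0.106. They summed to 127 to 167 FPKM in CTX and 90.0 to 160 in CTX_HCQ. Their part in the other differences was not tested.

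Of the 34 lists, 23 had a negative median. Cilium and oviduct genes, mitochondrially encoded genes and interferon-stimulated genes were the 3 lists whose library levels did not overlap between CTX and CTX_HCQ, the latter 2 by 0.01 each.

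**Figure D5:**
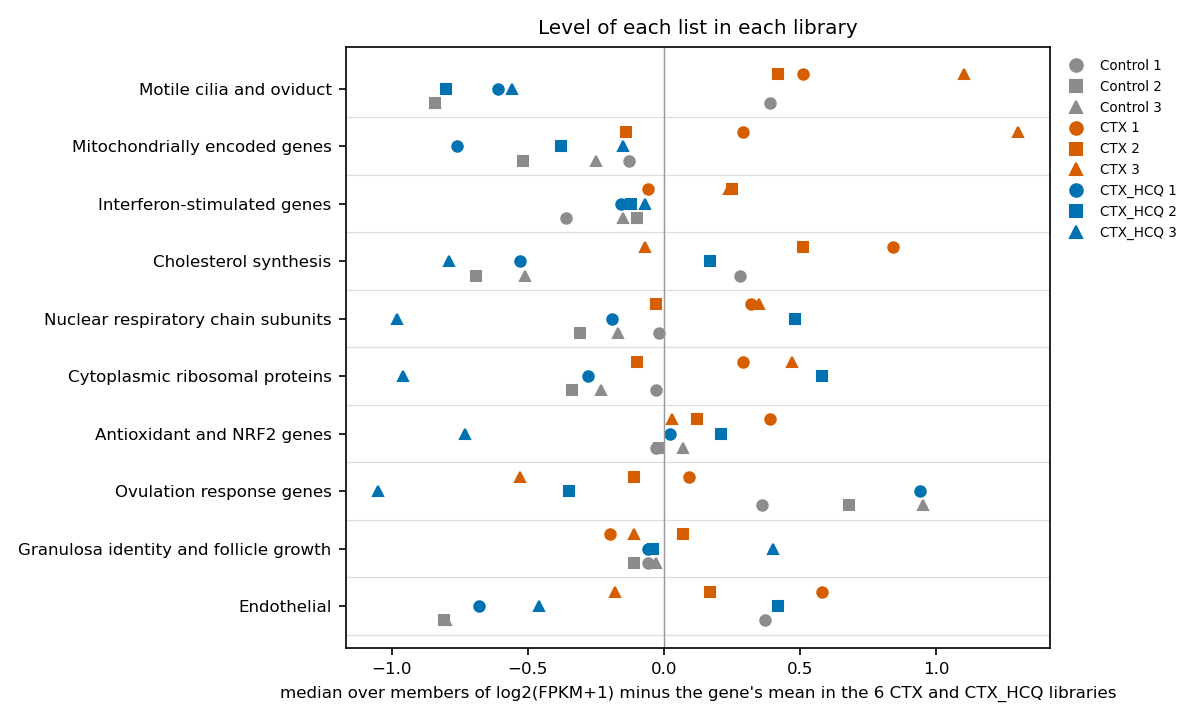
Level of 10 gene lists in each library, as the median over members of log2(FPKM+1) minus the gene's mean in the 6 CTX and CTX_HCQ libraries. The CTX levels of cilium and oviduct genes lie at 0.42 and above and the CTX_HCQ levels at -0.56 and below, and CTX_HCQ 1 lies with the Control libraries in ovulation genes.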

How the data were processed

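The 9 libraries are poly-A RNA sequencing of mouse granulosa cells. The FPKM values were made by the authors and are used as deposited. The submitters' processing notes list DESeq2 1.20.0, featureCounts 1.5.0-p3, HISAT2 2.0.5 and fastp 0.23.2, and the builds GRCm39 and mm39. Strand use is unknown here, so overlapping and antisense genes cannot be told apart. Genes with at least 1 FPKM in at least 3 of the 6 CTX and CTX_HCQ libraries were fitted as log2(FPKM+1) in limma 3.58.1 (R 4.3.3), with all 9 libraries sharing one estimate of spread, a mean trend and Benjamini-Hochberg adjustment. Whole reads, within 0.02, were recovered for 13880 of 13888 genes and used for voom. GENCODE M21 gave names and lengths only.

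Genes named are the 10 of smallest p in each direction with a mean of at least 5 FPKM in the higher group, up to 4 carried by each library, a set fixed by name, and up to 4 members of smallest p in each list with those that define it. Further members, such as those without overlap or against a list's direction, were chosen after their values were seen. The members and lists were chosen with earlier results of these data known. Alternatives were normalization, pseudocount, filters, voom, library weights, the replicate block, left-out libraries and, added after seeing the data, removal of the length trend.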

Additional observations from a re-analysis of the deposited data

How the results depend on the processing

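No gene passed limma's Benjamini-Hochberg threshold with all libraries, and with 1 library left out the number called ran from 0 to 12, reached without Control 1. Library weights called 1 gene, Gm29216. The 1093 genes without overlap became 562 at a mean FPKM of at least 5, 2255 with no filter on low values and 4336 without CTX 3 and CTX_HCQ 3. Leaving out a Control library, which is not compared, kept 1093. Leaving out 1 compared library gave from 1579 without CTX 1 to 4356 without CTX_HCQ 2. Fewer values per group overlap less often, and at equal group sizes the count also depended on which library was left out. The replicate block called 0 genes and left 621 at an unadjusted limma p under 0.05. Deviations of same-numbered CTX and CTX_HCQ libraries from their group means correlated at 0.137, -0.469 and 0.009. Deviations within a group of 3 depend on each other, so these values cannot decide whether the numbers pair libraries. The labels do not say.

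Signs changed for genes with small or single-library log2 differences, and the cause was not tested. With CTX 3 and CTX_HCQ 3 left out together the values were Trp53 0.301, Tfam 0.009, Cyp19a1 -0.74, Star 0.041, Cyp17a1 -1.033, Rfx3 -0.205, Ccdc39 -0.135, Ggps1 -0.065. With the length trend removed the values were Trp53 0.006, Rfx3 -0.091, Ccdc39 -0.014. With library weights the values were Trp53 0.261, Cyp19a1 -0.833, Star 0.064, Cyp17a1 -2.104, Rfx2 0.02, Rfx3 -0.111, Ccdc39 -0.079, Ggps1 -0.016. By voom the values were Trp53 0.045, Cyp17a1 -0.1. With mitochondrially encoded genes left out the values were Trp53 0.1, Rfx2 0.001. With a pseudocount of 0.1 the values were Cyp17a1 -0.077. Under quantile normalization the values were Trp53 0.038, Rfx2 0.032. With 1 library left out the ranges were Tinagl1 -0.159 to 2.055, Irf3 -0.045 to 0.258, Cdkn1a -0.016 to 1.138, Trp53 -0.179 to 0.209, Glb1 -0.022 to 0.415, Lmnb1 -0.07 to 0.27, Tfam -0.35 to 0.137, Amh -0.069 to 0.582, Fshr -0.092 to 0.323, Cyp19a1 -0.381 to 0.675, Star -0.943 to 0.128, Cyp11a1 -0.678 to 0.096, Cyp17a1 -0.789 to 1.495, Rfx2 -0.237 to 0.169, Rfx3 -0.152 to 0.203, Ccdc39 -0.214 to 0.252, Ggps1 -0.004 to 0.139, Adamts1 -0.194 to 1.813.

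CTX_HCQ 3 has the fewest reads, and genes of few reads are the least certain.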
